A study of Mus musculus with 30 samples.

Results

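Mammary tumors of MMTV-PyMT mice were compared by whether the animal had received a chemotherapy, to describe which changes in gene expression 5-fluorouracil (5-FU) and gemcitabine had in common. Of 30 bulk RNA sequencing libraries, the 20 whose titles name 5-FU or gemcitabine were set against the 10 that name neither. The 20 held 5 tumors for each drug alone and 5 for each drug given with KCL-HO-1i. The 10 were 5 tumors treated with vehicle and 5 treated with KCL-HO-1i, an inhibitor of the heme-degrading enzyme heme oxygenase-1 (gene Hmox1), which was thus present in part of both arms and entered the model as a covariate of 2 levels. All groups were of genotype WT on FVB/N-Tg(MMTV-PyVT)634Mul/J, and the labels give no age. In this strain a mammary tumor virus promoter drives the polyoma middle T oncogene in the mammary epithelium. Drugs were injected i.p. over 72 hours. Gemcitabine was dosed at 64 mg/kg per 7 days, 5-FU at 40 mg/kg per 4 days and the inhibitor at 25 µmol/kg each day. These are the values of the labels, and the methods text differs from them in its time, which is shorter, and in its gemcitabine dose, which is lower.

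5-FU is a uracil analog that blocks thymidylate synthase and is built into RNA and DNA. Gemcitabine is a deoxycytidine analog that deoxycytidine kinase activates, and that blocks ribonucleotide reductase and terminates growing DNA chains. Stalled replication under either drug is known to activate p53 and its target genes, to slow the cell cycle, and to suppress the blood-forming cells of the bone marrow.

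Library totals ran from 10067577 to 13622264 counts, and between 14629 and 15614 genes had at least 1 read. Levels are given as CPM (read counts scaled to a common effective library size), and 3 reads corresponded to between 0.215 and 0.302 CPM. The share of mitochondrial counts was 2.54% ± 0.697 (SD, n = 20) with chemotherapy and 3.05% ± 2.4 (SD, n = 10) without (two-sided permutation p = 0.439), and the permutation p for the total count was 0.770 (100000 resamples, adjusted p = 0.770 for both measures). The tissue label was checked against 15 luminal epithelial genes, all of which were tested and which together held between 3097 and 6708 CPM in every library. RNA of neighboring tissue varied widely. The 19 skeletal muscle genes summed to between 6.11 and 17162 CPM with chemotherapy, the highest in KCL-HO-1i/gemcitabine replicate 2, and to between 9.30 and 5651 CPM without. KCL-HO-1i replicate 4 stood apart, with 9.69% mitochondrial counts and 3061 CPM of brown adipocyte genes, against a median of 26.9 CPM over the 10 libraries without chemotherapy. The labels give each sample an identifier that begins with PY and a number, whose meaning is not stated. That number, called the PY code here, had 13 values. Code 76 held 7 libraries and no control, namely 5-FU replicates 1 to 3 and gemcitabine replicates 1 to 4, and 5 codes held both arms. No code held both a vehicle tumor and a tumor given a drug without KCL-HO-1i. Differences of a drug alone from vehicle therefore cannot be told apart from differences between codes. In bulk samples fewer cells of a type and less RNA per cell cannot be told apart. P-values measure the spread between these samples.

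The comparison of any chemotherapy against none asked for a response shared by both drugs. Of 13663 genes tested, 0 passed an adjusted p under 0.05 in edgeR (quasi-likelihood test, Benjamini-Hochberg adjustment; percent called: 0), and the smallest adjusted p was 0.679. At an unadjusted p under 0.05 the count was 998 genes, or 7.3% of those tested, of which 555 were higher (4.06%) and 443 lower (3.24%) with chemotherapy. DESeq2 called 1 gene, Otor, which had too few reads to be tested in edgeR, and limma-voom called 0 (1227 at an unadjusted p under 0.05). At the limits of the study, a log2 fold change above 0.6 either way with an unadjusted p under 0.05, the count was 356, with 286 higher (2.09%) and 70 lower (0.512%). There were 0 tested genes in which the 20 libraries lay wholly apart from the 10. Chemotherapy accounted for 3.40% of the variance of log2 CPM after KCL-HO-1i, where 1 of 29 degrees of freedom is 3.45%, against 8.57% for KCL-HO-1i and 4.15% for the contrast between the drugs. The median standard error was 0.13 on the log2 scale, and the 95% interval of the log2 fold change lay within 1 unit either way for 82.3% of genes and within 0.6 for 67.3%.

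The genes with the smallest unadjusted p were taken among those of the same sign in 4 pairs of groups, which set each drug against vehicle and each combination against KCL-HO-1i alone. All 14 taken in each direction had an adjusted p of 0.679 in edgeR, and in all of them the ranges of the arms overlapped. Ccdc6 (chr10:70097121-70193200, plus strand, GRCm38, as are all positions here), a coiled-coil protein best known as a fusion partner of the RET kinase, ran from 80.5 to 197 CPM (median 112) in the 20 treated libraries and from 110 to 338 CPM (median 191) in the 10 others. Of the treated libraries 19 lay below the mean of the untreated libraries of their own background (vehicle or KCL-HO-1i), and 10 lay below the lowest untreated library. The log2 fold change was −0.60 (SE 0.13, unadjusted p = 7.85e-05 in edgeR), or 33.9% lower, with −0.59 for 5-FU and −0.61 for gemcitabine.

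Bicdl1 (chr5:115648175-115731621, minus strand), an adaptor that links dynein to vesicles, ran from 5.31 to 14.3 CPM (median 10.4) with chemotherapy and from 8.79 to 27.1 CPM (median 16.8) without. All 20 treated libraries lay below the mean of their background, and the log2 fold change was −0.64 (SE 0.14). Tfrc (chr16:32608920-32632794, plus strand), the transferrin receptor through which cells take up iron, ran from 34.6 to 187 CPM (median 94.9) against 106 to 433 CPM (median 153). It was lower in 19 of 20 libraries, 11 of them below the lowest untreated library, with a log2 fold change of −0.79 (SE 0.21) that was −1.06 for 5-FU and −0.56 for gemcitabine. The mean of Tfrc without KCL-HO-1i was 197 CPM ± 134 for vehicle, 115 ± 43.2 for 5-FU and 133 ± 28.8 for gemcitabine, and with it 161 ± 38.4 alone, 62.8 ± 18.7 when 5-FU was added and 110 ± 47.6 when gemcitabine was added (SD, n = 5 per group). The vehicle mean includes the tumor at 433 CPM, which raises it. As single libraries were left out, the log2 fold change of Tfrc for any chemotherapy was weakest without vehicle replicate 3, at −0.58. Pmvk, phosphomevalonate kinase of the mevalonate pathway, was not on the list of sterol genes described below. It ran from 27.6 to 77.0 CPM (median 44.2) against 50.6 to 78.0 CPM (median 66.0), with 15 of 20 treated libraries below the lowest untreated library and a log2 fold change of −0.46 (SE 0.12).

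The other genes lower with chemotherapy were Zbtb40 (log2 fold change −0.42), Ddhd2, a phospholipase (−0.77), 4931406C07Rik (−0.53), Dhrs7 (−0.64), Clcn5, an endosomal chloride transporter (−0.42), Slc25a51, the mitochondrial NAD carrier (−0.32), Alas2, which starts heme synthesis in erythroid cells (−1.61), Magt1 (−0.27), Cdk17 (−0.25) and Marf1 (−0.21). Each was lower in 17 to 20 of the 20 treated libraries, and 4931406C07Rik and Dhrs7 in all 20.

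Among the genes higher with chemotherapy, Abat (chr16:8513429-8621568, plus strand), which breaks down the transmitter GABA, ran from 1.46 to 38.5 CPM (median 3.92) in the 20 treated libraries and from 0.879 to 3.28 CPM (median 2.02) in the 10 others. It was higher in 17 of 20, with 11 above the highest untreated library, and the log2 fold change of 1.73 (SE 0.45) was a 3.31-fold difference. Gemcitabine replicate 1, at 17.1 CPM, and KCL-HO-1i/5-FU replicate 3, at 38.5 CPM, were the highest. Cd63 (chr10:128900989-128912822, plus strand), a tetraspanin of late endosomes and exosomes, ran from 257 to 605 CPM (median 387) against 231 to 350 CPM (median 291). It was higher in 18 of 20 libraries, 11 of them above the highest untreated library, with a log2 fold change of 0.40 (SE 0.11) that was 0.46 for 5-FU and 0.34 for gemcitabine. Wnt5b (chr6:119432531-119544347, minus strand), a noncanonical Wnt ligand, ran from 59.2 to 247 CPM (median 109) against 33.4 to 117 CPM (median 67.8), and was higher in 18 of 20 with a log2 fold change of 0.75 (SE 0.22).

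Others of the 14 were Rnf187 (log2 fold change 0.21), Klhl22 (0.35), Traf5, an adaptor of TNF receptors (0.58), Ddit4l, an inhibitor of mTOR signaling (0.87), Apbb1 (0.80), Ikbip (0.39), Cbs, which turns homocysteine into cystathionine (1.29), Runx2, a transcription factor of bone (0.77), Pcdha11 (1.59) and Dclk1 (1.48). Ikbip was higher in all 20 treated libraries, and Traf5 in 19. Dclk1 was higher in 14 and reached 98.2 CPM in KCL-HO-1i/5-FU replicate 3, against at most 38.9 CPM in any other library. Pcdha11 shares its last exons with the other genes of the Pcdha cluster, so its counts are uncertain.

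**Figure D1:**
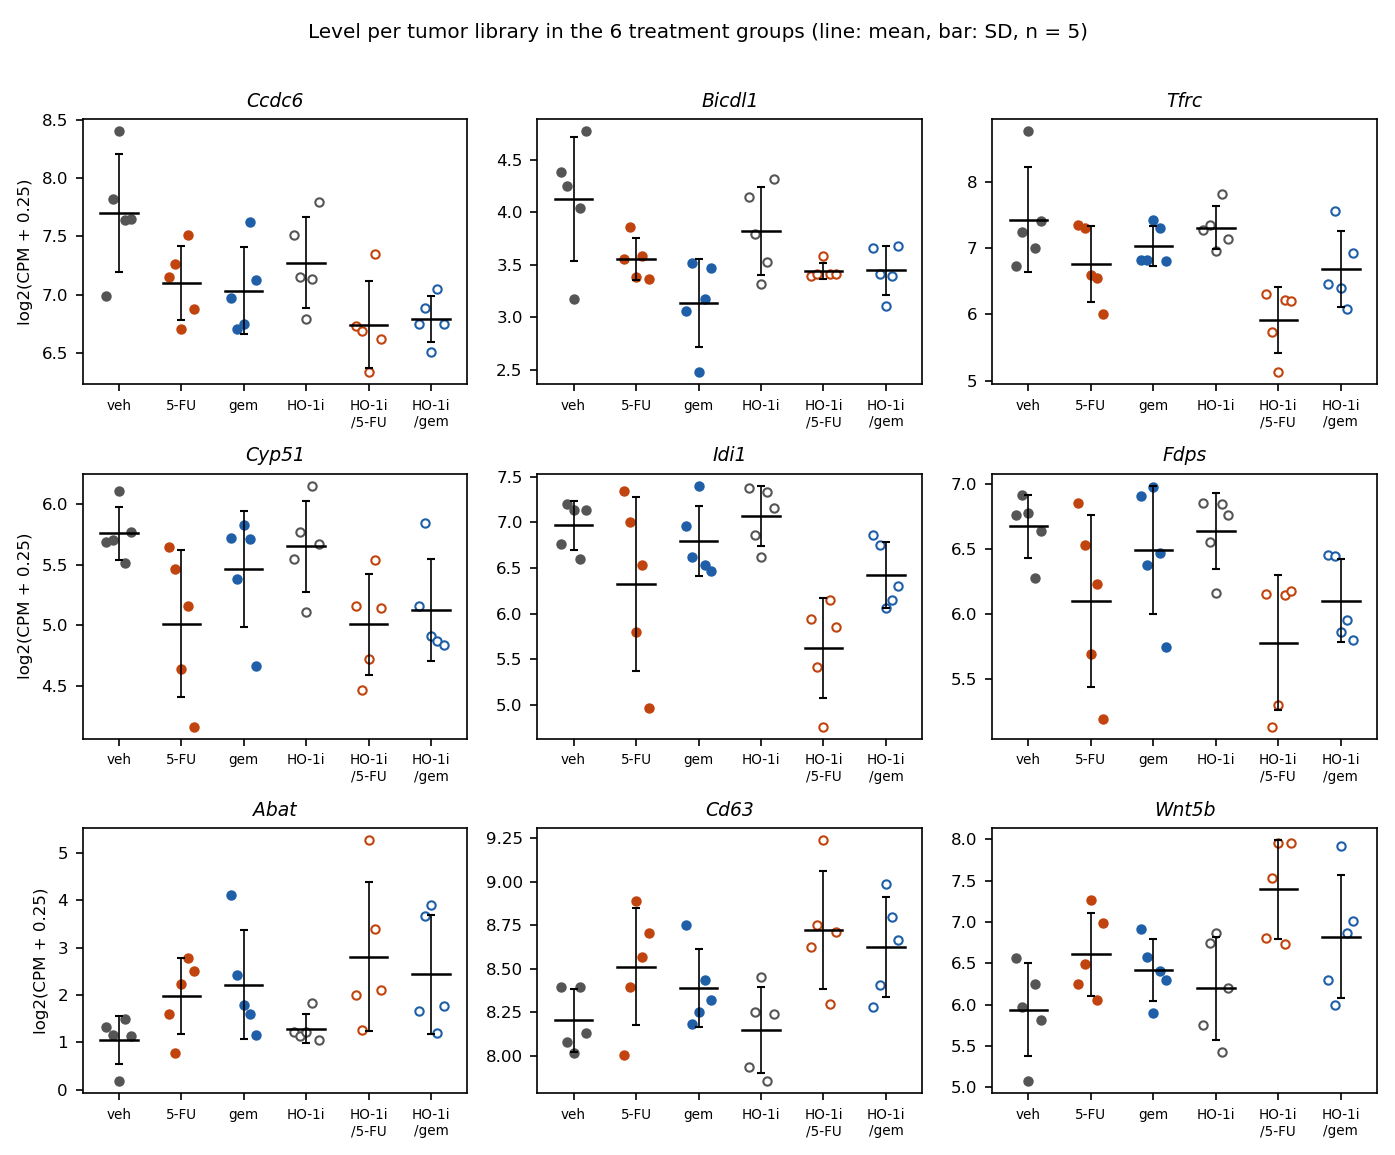
Each panel plots the level of a gene on a log2 CPM scale in every library of the 6 groups (veh, vehicle; gem, gemcitabine; HO-1i, KCL-HO-1i), with filled circles without and open circles with KCL-HO-1i, the line at the mean and the bar at the SD. Genes such as Ccdc6, Tfrc and Idi1 lie lower, and Abat and Cd63 higher, in most treated libraries, with overlap between the arms.

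Genes of cholesterol synthesis lay on the lower side together. These enzymes build cholesterol from acetyl-CoA through mevalonate, isoprenoids and lanosterol, and the transcription factor SREBP-2 (gene Srebf2), held back by Insig1, drives them when sterols run low. Of 20 listed genes 19 were tested, and all 19 were lower with chemotherapy, with a median log2 fold change of −0.37 against 0.02 over all genes tested. An unadjusted p under 0.05 was reached by 13 of the 19, where 3.24% of all genes were lower at that limit, and 0 passed the adjusted threshold. The 19 genes are not independent replicates.

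Cyp51, lanosterol demethylase, ran from 17.6 to 57.3 CPM (median 35.5) in the 20 treated libraries and from 34.3 to 71 CPM (median 51.8) in the 10 others. It was lower than the mean of its background in 18 of 20 libraries, with a log2 fold change of −0.51 (SE 0.16, unadjusted p = 0.00297, adjusted p = 0.679 in edgeR). Idi1, isopentenyl diphosphate isomerase, ran from 26.8 to 169 CPM (median 83.7) against 96.7 to 167 CPM (median 140). Of the treated libraries 13 lay below the lowest untreated library, while gemcitabine replicate 3 was the highest of all 30, and the log2 fold change was −0.64 (SE 0.21). Others of the 13, each with its log2 fold change, were the early enzyme Hmgcs1 (−0.47), the isoprenoid synthase Fdps (−0.48), squalene synthase Fdft1 (−0.28), lanosterol synthase Lss (−0.36), the late enzymes Msmo1 (−0.39), Sc5d (−0.24) and Dhcr7 (−0.25), and the sterol carrier Stard4 (−0.42). Insig1 (−0.49), Mvd (−0.37), Sqle (−0.24), Mvk (−0.19), Nsdhl (−0.15) and Srebf2 (−0.11) did not reach an unadjusted p under 0.05.

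For 15 of the 19 genes the value was lower in all 4 pairs of groups, against 1554 of all 13663 genes, and the pairs share controls 2 by 2. As differences of mean log2 CPM the medians of the list were −0.54 for 5-FU against vehicle (19 of 19 genes lower), −0.16 for gemcitabine against vehicle (16 of 19), and, on KCL-HO-1i, −0.61 for 5-FU (18 of 19) and −0.33 for gemcitabine (19 of 19). The median over all genes was between −0.01 and 0.02 in the same pairs. Against the 10 libraries without chemotherapy, which both drugs share as control, the fitted median was −0.57 for 5-FU with 16 genes lower at an unadjusted p under 0.05 (background 6.24%), and −0.26 for gemcitabine with 2 (background 2.61%), Cyp51 and Dhcr7. These counts do not test whether the drugs differ. The mean log2 CPM of the 19 genes lay below the lowest untreated library in 7 of 10 libraries with 5-FU and in 4 of 10 with gemcitabine. Without KCL-HO-1i replicate 4, the library with the highest sum of these genes and the most brown adipocyte RNA, 5 of the 19 reached the limit for any chemotherapy and the median was −0.28, with all 19 still below 0. In cholesterol synthesis for any chemotherapy against none, it was 9 genes and −0.45 with the PY code as a factor and 16 genes and −0.63 without code 76.

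**Figure D2:**
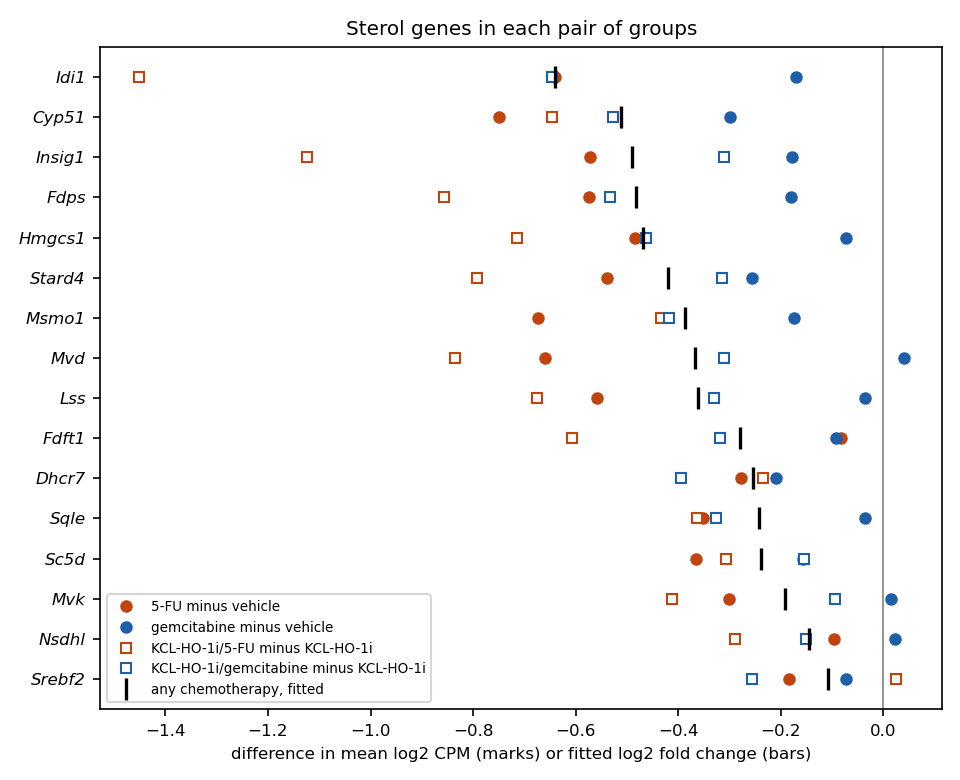
For each sterol gene named in the text the marks show the difference in mean log2 CPM in the 4 pairs of groups and the fitted log2 fold change of any chemotherapy, with 0 as no difference. Every fitted value shown lies below 0, from −0.64 for Idi1 to −0.11 for Srebf2, and most marks of the 4 pairs lie below 0 too.

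Promoters of 4 of these genes are shown because the list lay on the same side. RefSeq promoters (GRCm38.p6) matched 12 of the 19 genes. The 250 bases before the start of transcription were searched on both strands for CCAAT, the box bound by NF-Y, and for CACCCCAC, a sterol regulatory element. A CCAAT was found in 12 of 12 genes, against 40.1% of 10701 genes. By promoter it was found in 12 of the 14 promoters of these genes, against 34.7% of 13691 promoters. CACCCCAC was found in 1 of 12, Hmgcs1, against 3.35% of all genes. These are matches of letters and not sites shown to be bound, and their relation to the expression values was not tested. The 4 genes shown are the 3 with the smallest p among those with a CCAAT, and Hmgcs1, added by name. The stretches below end at the base before the start and read 5′ to 3′ on the strand of the gene, with CCAAT, its reverse complement ATTGG and the sterol element in capitals. Cyp51 is at chr5:4104698-4104771 (minus strand), Idi1 at chr13:8885547-8885605 (plus strand), Msmo1 at chr8:64733579-64733678 (minus strand) and Hmgcs1 at chr13:119690170-119690350 (plus strand).
Cyp51: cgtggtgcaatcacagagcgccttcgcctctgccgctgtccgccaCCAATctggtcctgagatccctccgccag
Idi1: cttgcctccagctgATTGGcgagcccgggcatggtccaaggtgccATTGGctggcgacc
Msmo1: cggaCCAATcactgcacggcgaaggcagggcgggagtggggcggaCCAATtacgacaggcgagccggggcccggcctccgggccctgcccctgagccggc
Hmgcs1: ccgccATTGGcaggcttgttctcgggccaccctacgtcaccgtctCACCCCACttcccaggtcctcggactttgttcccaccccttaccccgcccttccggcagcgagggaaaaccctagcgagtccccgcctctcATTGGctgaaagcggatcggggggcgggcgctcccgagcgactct
The box of Cyp51 begins 29 bases before the start, Idi1 holds a pair of boxes in reverse orientation within 59 bases, and the sterol element of Hmgcs1 begins 136 bases before the start, with a box on either side. The log2 fold changes of any chemotherapy were −0.51, −0.64, −0.39 and −0.47 in the same order.

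Each drug was then set against the same 10 libraries, and the drugs against each other. For 5-FU 0 of 13663 genes passed the adjusted threshold in edgeR (percent called: 0, smallest adjusted p = 0.312) and 1633 had an unadjusted p under 0.05 (12%), 780 higher (5.71%) and 853 lower (6.24%), while DESeq2 called 11, among them Tfrc and Zbtb40. For gemcitabine it was 0 in edgeR (smallest adjusted p = 0.855) and 696 (5.09%), 339 higher (2.48%) and 357 lower (2.61%), with 0 by DESeq2. The direct comparison of 5-FU against gemcitabine, 10 tumors against 10, had 0 at the adjusted threshold in edgeR (smallest adjusted p = 0.0993) and 1648 at an unadjusted p under 0.05 (12.1%), 509 higher (3.73%) and 1139 lower (8.34%) in 5-FU, with 20 called by DESeq2 and 22 by limma-voom. At the limits of the study 5-FU had 407 higher (2.98%) and 244 lower (1.79%), gemcitabine 156 (1.14%) and 48 (0.351%), and 5-FU against gemcitabine 137 (1%) and 322 (2.36%). Pik3ap1, an adaptor of PI3 kinase in B and myeloid cells, was at 51.7 to 76.9 CPM in 5-FU and 20.5 to 39.8 CPM in gemcitabine, which did not overlap. It was picked for the smallest p of this comparison, which favors ranges that lie apart. The share of all genes with ranges apart in these groups was not computed. With KCL-HO-1i the ranges, 34.7 to 86.6 CPM and 12.4 to 45.5 CPM, did overlap. Its log2 difference between 5-FU and gemcitabine was 0.97 (SE 0.18, adjusted p = 0.0993 in edgeR). Also higher in 5-FU were Pcdhb12 (1.78), of a cluster of near-identical genes, and Arid4b (0.34), and lower were Rpia, of the pentose phosphate pathway (−0.45), Pold2, a subunit of DNA polymerase delta (−0.48), and Ptcd2 (−0.39).

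Erythroid genes had the lowest median of the 44 gene lists for any chemotherapy. Of 8 listed genes 5 were tested, namely the globins Hba-a1, Hba-a2, Hbb-bs and Hbb-bt and the heme synthesis enzyme Alas2. Hba-a1 and Hba-a2, and likewise Hbb-bs and Hbb-bt, are near-identical copies, so the split of reads within each pair is uncertain. The median log2 fold change was −1.42 for any chemotherapy, with 4 of 5 lower at an unadjusted p under 0.05 (background 3.24%), −1.03 for 5-FU with 1 lower (background 6.24%) and −2.13 for gemcitabine with 4 lower (background 2.61%). Set directly against gemcitabine, 5-FU had a median of 0.98 with 1 of 5 higher, Hbb-bt (background 3.73%), and 0 at the adjusted threshold in edgeR. Hbb-bs, adult beta globin (chr7:103826534-103828096, minus strand), was at 95.1, 121, 182, 164 and 30.3 CPM in the 5 vehicle tumors and at 73.1, 119, 247, 260 and 90.2 CPM in the 5 KCL-HO-1i tumors. With gemcitabine it was at 1.23, 3.26, 2.56, 0.931 and 262 CPM, and with KCL-HO-1i/gemcitabine at 2.74, 25.4, 12.9, 0.904 and 23.6 CPM. Thus 9 of 10 gemcitabine tumors lay below the lowest untreated tumor, and the other, gemcitabine replicate 5, the only library of PY code 86, was the highest of the 30.

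With 5-FU Hbb-bs was at 43.1, 88.5, 48.9, 129 and 39.9 CPM, and with KCL-HO-1i/5-FU at 29.2, 19.1, 260, 50.5 and 18.5 CPM, so that 3 of 10 lay below the lowest untreated tumor. For Hba-a1 (chr11:32283511-32284465, plus strand) it was 8 of 10 with gemcitabine, which ran from 1.09 to 373 CPM with a median of 9.91, and 2 of 10 with 5-FU (22.7 to 278 CPM, median 68.3), against 47.8 to 352 CPM (median 171) in the 10 untreated tumors. For Hbb-bt it was 9 of 10 and 6 of 10, and for Alas2 8 of 10 and 4 of 10. Within PY code 76, 4 gemcitabine tumors had 0.931 to 3.26 CPM of Hbb-bs and 3 5-FU tumors had 43.1 to 88.5 CPM, with no overlap.

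The fitted values follow the mean of counts, on which gemcitabine replicate 5 weighs. For gemcitabine against none Hbb-bs had a log2 fold change of −2.22, Hba-a1 of −2.01 and Hbb-bt of −3.42, each with an adjusted p of 0.855 in edgeR. Without gemcitabine replicate 5 Hbb-bt (−6.26, adjusted p = 0.000409), Hbb-bs (−4.37, adjusted p = 0.00273) and Hba-a1 (−3.73, adjusted p = 0.0129) passed the threshold in edgeR. Between 5-FU and gemcitabine Hbb-bt (5.24, adjusted p = 0.00685) and Hbb-bs (3.48, adjusted p = 0.0454) did too. The library left out is the gemcitabine tumor that lay opposite to the others, so these adjusted p-values are no separate evidence. The median of Hbb-bt with gemcitabine was 0.083 CPM, less than 3 reads. With the PY code as a factor, Hbb-bt (−5.71, adjusted p = 0.0156) and Hbb-bs (−3.69, adjusted p = 0.0225) were lower with gemcitabine against none in edgeR. In that fit the median of the 5 erythroid genes for 5-FU against none was 0.09. Gemcitabine replicate 5 is the only library of its code, so it carries no weight in the drug contrasts of that fit. The fit is therefore close to leaving that library out. Without code 76, which leaves 6 gemcitabine libraries, 2 of the 5 were lower at an unadjusted p under 0.05 for gemcitabine against none (median −1.74) and 0 of 5 differed between 5-FU and gemcitabine. For any chemotherapy against none the count of 4 erythroid genes became 2 without KCL-HO-1i replicate 4, 1 without code 76 and 1 with the PY code as a factor.

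**Figure D3:**
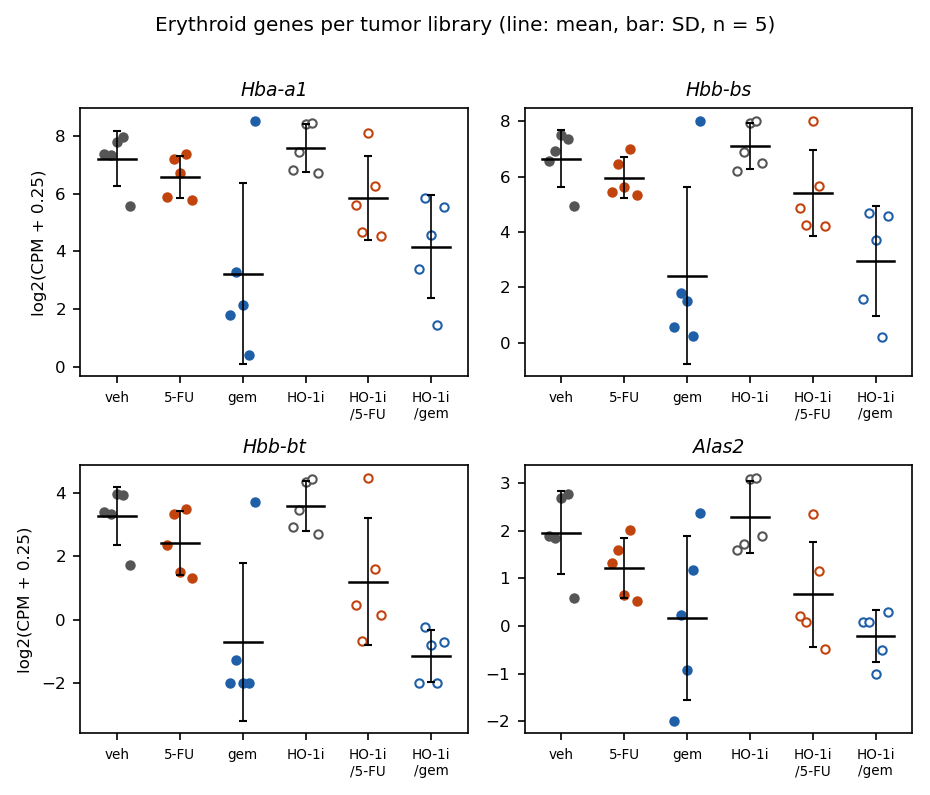
Levels of erythroid genes on a log2 CPM scale in every library of the 6 groups (veh, vehicle; gem, gemcitabine; HO-1i, KCL-HO-1i), with filled circles without and open circles with KCL-HO-1i, the mean as a line and the SD as a bar. For Hbb-bs, 9 of 10 gemcitabine tumors lie below every untreated tumor, while gemcitabine replicate 5 lies above them all.

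Targets of p53, the transcription factor that damaged DNA activates, were mostly on the higher side. All 30 listed genes were tested and 25 had a log2 fold change above 0, with a median of 0.21 against 0.02 over all genes. Higher at an unadjusted p under 0.05 were 6, against a background of 4.06%, namely the cell cycle inhibitor Cdkn1a (0.79), the cyclin Ccng1 (0.22), the death genes Bbc3 (0.36), Bax (0.34) and Fas (0.41) and the polymerase Polk (0.25). Lower was 1, the kinase Plk3 (−0.50). Mdm2, the ubiquitin ligase that p53 induces against itself, was at 0.05 (95% interval −0.11 to 0.21). As differences of mean log2 CPM the median of the list was −0.01 and −0.03 for 5-FU and gemcitabine against vehicle, and 0.41 and 0.20 for the same drugs on KCL-HO-1i. The count of 6 was 1 without KCL-HO-1i replicate 3.

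Cdkn1a (chr17:29090976-29100727, plus strand) was at 69.9, 85.2, 120, 94.7 and 148 CPM with vehicle, at 55.6, 68.0, 126, 48.1 and 343 CPM with 5-FU and at 77.8, 81.2, 149, 82.3 and 63.6 CPM with gemcitabine. These 3 groups overlapped, and a single 5-FU tumor was high. With KCL-HO-1i it was at 57.2, 41.7, 38.4, 65.5 and 61.8 CPM, with KCL-HO-1i/5-FU at 256, 236, 210, 219 and 178 CPM and with KCL-HO-1i/gemcitabine at 52.8, 54.1, 255, 121 and 73 CPM. Every KCL-HO-1i/5-FU tumor lay above every KCL-HO-1i tumor. The log2 difference with chemotherapy was 0.08 without and 1.65 with KCL-HO-1i, and the test of that difference gave an unadjusted p of 0.0112 (adjusted p = 0.985 in edgeR).

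Tyms, thymidylate synthase (chr5:30058202-30073617, minus strand), the target of 5-FU, ran from 10.8 to 42.9 CPM (median 19.2) in the treated arm and from 15.6 to 28 CPM (median 21.5) in the other, with a log2 fold change of 0.00 (95% interval −0.33 to 0.33). It was −0.28 for 5-FU and 0.24 for gemcitabine, and the difference between the drugs of −0.52 had an unadjusted p of 0.0035 in edgeR. The subunits of ribonucleotide reductase, Rrm1 (−0.15) and Rrm2 (−0.28), deoxycytidine kinase Dck (−0.08), cytidine deaminase Cda (−0.10) and the 5-FU degrading enzyme Dpyd (0.36) had intervals on both sides of 0. Of 26 tested genes of 5-FU action and metabolism 0 were higher and 0 lower at an unadjusted p under 0.05 (median −0.00), against 4.06% and 3.24% of all genes, and of 21 genes of gemcitabine uptake, activation and target 0 were higher and 1 lower (median 0.03), the nucleoside transporter Slc28a3 (−0.40). In the 5-FU list 3 of 26 were lower for 5-FU against none (median −0.15, background 6.24%), and 8 were lower and 1, Dpyd, higher in 5-FU against gemcitabine (median −0.19, background 8.34% and 3.73%). Rrm1 and Rrm2 were at −0.39 and −0.71 for 5-FU (unadjusted p = 0.029 and 0.0327 in edgeR) and at −0.45 and −0.76 between the drugs (unadjusted p = 0.0129 and 0.0224 in edgeR).

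Genes of cell division lay lower in 5-FU than in gemcitabine. All 38 mitosis genes had a log2 fold change below 0 for any chemotherapy (median −0.18), with 0 at an unadjusted p under 0.05. This did not hold without KCL-HO-1i, where 34 of 38 were above 0 (median 0.11), while with it all 38 were below 0 (median −0.46). As differences of mean log2 CPM the medians were −0.39 for 5-FU (38 of 38 lower) and 0.25 for gemcitabine (0 of 38) against vehicle, and −1.03 (38 of 38) and −0.16 (37 of 38) on KCL-HO-1i. For 5-FU the median was −0.60 and 26 were lower at that limit (background 6.24%), and for gemcitabine the median was 0.12 with 0 lower. Between the drugs 35 of 38 were lower in 5-FU (median −0.71, background 8.34%). Mki67, the proliferation marker, was at −0.71 for 5-FU, 0.04 for gemcitabine and −0.74 between them, and the transcription factor Foxm1 and the spindle gene Prc1 were at −0.58 and −0.64 between them. The 45 genes of DNA replication and S phase had medians of −0.28 for 5-FU and 0.14 for gemcitabine, with 31 lower in 5-FU against gemcitabine. With the PY code as a factor, 5-FU against gemcitabine had 7 mitosis genes lower with a median of −0.63, and 5 S phase genes with a median of −0.38. Without code 76, 21 mitosis genes were lower in any chemotherapy against none (median −0.53). The mean log2 CPM of the mitosis genes ran from 5.07 to 5.67 in the 10 untreated libraries and was lowest in 5-FU replicate 5, at 3.61, and KCL-HO-1i/5-FU replicate 2, at 3.23. It lay below the lowest untreated library in 5 of 10 libraries with 5-FU and 2 of 10 with gemcitabine. The other 5-FU tumors without KCL-HO-1i, at 5.24 to 5.47, lay within the untreated range. The shift of 5-FU against vehicle thus rested largely on 5-FU replicate 5. Gemcitabine replicates 1 and 3 were the only libraries above every untreated one, and the rise against vehicle rested on them. The 38 genes are not independent replicates.

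**Figure D4:**
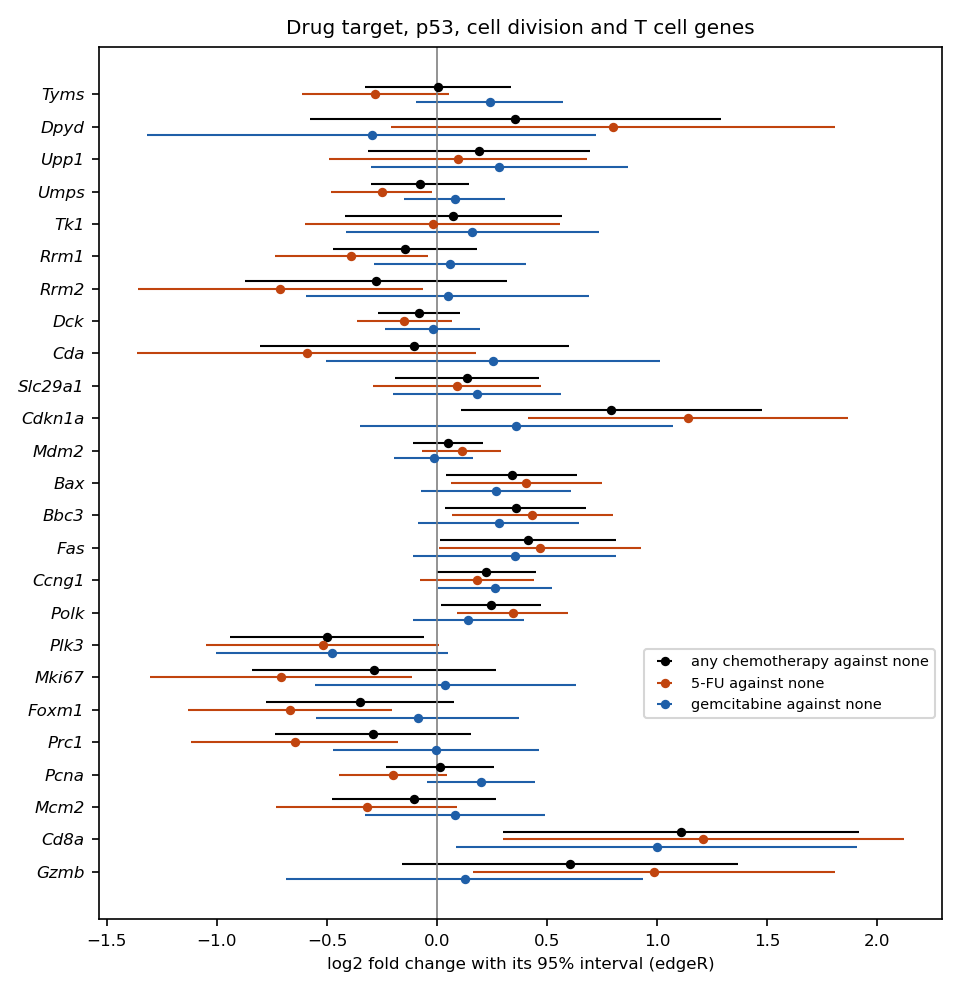
Points show the log2 fold change of 25 genes and lines its 95% interval for any chemotherapy and for each drug against the 10 libraries without chemotherapy. Tyms, Rrm1, Rrm2, Mki67, Foxm1 and Prc1 lie lower for 5-FU than for gemcitabine, and Cd8a lies above 0 for both.

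Comparisons with no library in common were set side by side. Chemotherapy without KCL-HO-1i (10 tumors against 5) gave 0 genes at the adjusted threshold in edgeR (smallest adjusted p = 0.981) and 396 by unadjusted p (2.9%), 169 higher (1.24%) and 227 lower (1.66%), with 6 called by DESeq2. With KCL-HO-1i it gave 0 in edgeR (smallest adjusted p = 0.169) and 993 (7.27%), 530 higher (3.88%) and 463 lower (3.39%), with 4 by DESeq2. Across 13663 genes, which are not independent replicates, their log2 fold changes had a Pearson correlation of 0.134 and a Spearman correlation of 0.175, and 54.9% had the same sign. The 396 and the 993 genes shared 25, which is 6.31% of the former and 2.52% of the latter. Among all genes the matching shares were 7.27% and 2.9%, so the overlap was no larger than these. Of the 25, 21 had the same direction, among them Ccdc6, Bicdl1, Tfrc, Zbtb40, Pmvk, Dhrs7, Clcn5 and 4931406C07Rik on the lower side and Abat, Dclk1, Rnf187, Nfkbie and Zfp30 on the higher. Except for Nfkbie and Zfp30, these were already chosen above by pooled p and the same sign in the 4 pairs. Their shared direction here is therefore no separate evidence. The 4 of opposite direction were Nfrkb, Nudt11, Rundc3b and Pcdhga6. The test of the difference itself had 0 genes at the adjusted threshold in edgeR, with 406 by unadjusted p (2.97%), 178 higher (1.3%) and 228 lower (1.67%), and 6 by DESeq2. At the limits of the study the counts were 109 higher (0.798%) and 34 lower (0.249%) without KCL-HO-1i, 297 (2.17%) and 170 (1.24%) with it, and 80 (0.586%) and 146 (1.07%) for the difference.

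For 5-FU against vehicle and gemcitabine on KCL-HO-1i the Pearson correlation across genes was 0.282 (Spearman 0.389, 65.9% of the same sign). For gemcitabine against vehicle and 5-FU on KCL-HO-1i it was −0.189 (Spearman −0.168, 41.9%).

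Immune and stromal markers lay mostly on the higher side in the pooled comparison, though not in every pair of groups. At an unadjusted p under 0.05 the shares of all genes to set beside the counts here are 4.06% higher and 3.24% lower. All 12 tested T and NK cell genes had a log2 fold change above 0 (median 0.59, with 1.05 without and 0.20 with KCL-HO-1i), with 1 at an unadjusted p under 0.05. That was Cd8a (chr6:71373427-71379173, plus strand), the co-receptor of cytotoxic T cells, at 0.496 to 3.48 CPM (median 1.05) in the treated arm and 0 to 1.53 CPM (median 0.596) in the other. It was higher in 19 of 20 libraries, at levels of few reads, with a log2 fold change of 1.11 (SE 0.40) that was 1.21 for 5-FU and 1.00 for gemcitabine. The killer cell protease Gzmb was at 0.60 (unadjusted p = 0.117 in edgeR). Of 25 chemokines 5 were higher and 1 lower at that limit (median 0.30, with 0.60 without and −0.11 with KCL-HO-1i), with Ccl5, which attracts T cells, at 0.89, Ccl3 at 0.94, the neutrophil attractants Cxcl1 and Cxcl5 at 0.70 and 2.75, and Ccl25 at −0.43. The fifth, Ccl21a, had 0 reads in all 5 vehicle tumors and up to 1.32 CPM in the KCL-HO-1i tumors, against up to 12.8 CPM in the treated arm, and near-identical copies make its counts uncertain. Of 17 secretory and inflammatory genes 3 were higher, the cytokine Tnf (0.96), the collagenase Mmp13 (1.53) and Tgfb1 (0.33).

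All 13 fibroblast and matrix genes (median 0.64) and all 12 endothelial genes (median 0.33) were above 0, with 0 at an unadjusted p under 0.05, and of 6 pericyte and smooth muscle genes 3 reached it, Acta2 (1.40), Myh11 and Tagln. KCL-HO-1i/gemcitabine replicate 3 held the most RNA of these 6 genes, 1125 CPM, and without it Acta2 was at 0.78 and Tagln at 0.50, and Myh11 at 0.99 no longer reached the limit. For 5-FU on KCL-HO-1i the medians went the other way, with −0.54 for fibroblast genes (10 of 13 lower) and −0.29 for chemokines (14 of 25 lower), as differences of mean log2 CPM. The summed level of the fibroblast genes ran from 241 to 14186 CPM (median 1289) in the treated arm and from 131 to 4394 CPM (median 1059) in the other, and its part in these values was not tested. The luminal epithelial genes had a median of −0.09 with 0 of 15 at the limit. Among macrophage genes (median 0.33, 0 of 15) Lyve1 was at −0.68, and at −0.0737 without KCL-HO-1i replicate 4, and Mrc1 was at 0.25. Hmox1, the target of KCL-HO-1i, was at 0.21, and the chemokines Cxcl12 and Cxcl14 at 0.41 and 0.33, all short of an unadjusted p under 0.05. Interferon-stimulated genes had a median of −0.36 for gemcitabine with 3 of 29 lower at the limit (background 2.61%), and 0.08 for 5-FU with 0. The gemcitabine difference of mean log2 CPM was −0.65 against vehicle (28 of 29 lower) and −0.01 on KCL-HO-1i (15 of 29). Genes of DNA damage checkpoint and repair had a median of −0.06 with 2 of 56 lower (Fanca and Lig3), a share near the background of 3.24%, and genes of cell death 0.03 with 0 of 24. Brown adipocyte genes had a median of −1.10 with 3 of 8 lower for any chemotherapy against none (background 3.24%), and without KCL-HO-1i replicate 4 the brown adipocytes list had 0.48 with 0 lower.

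**Figure D5:**
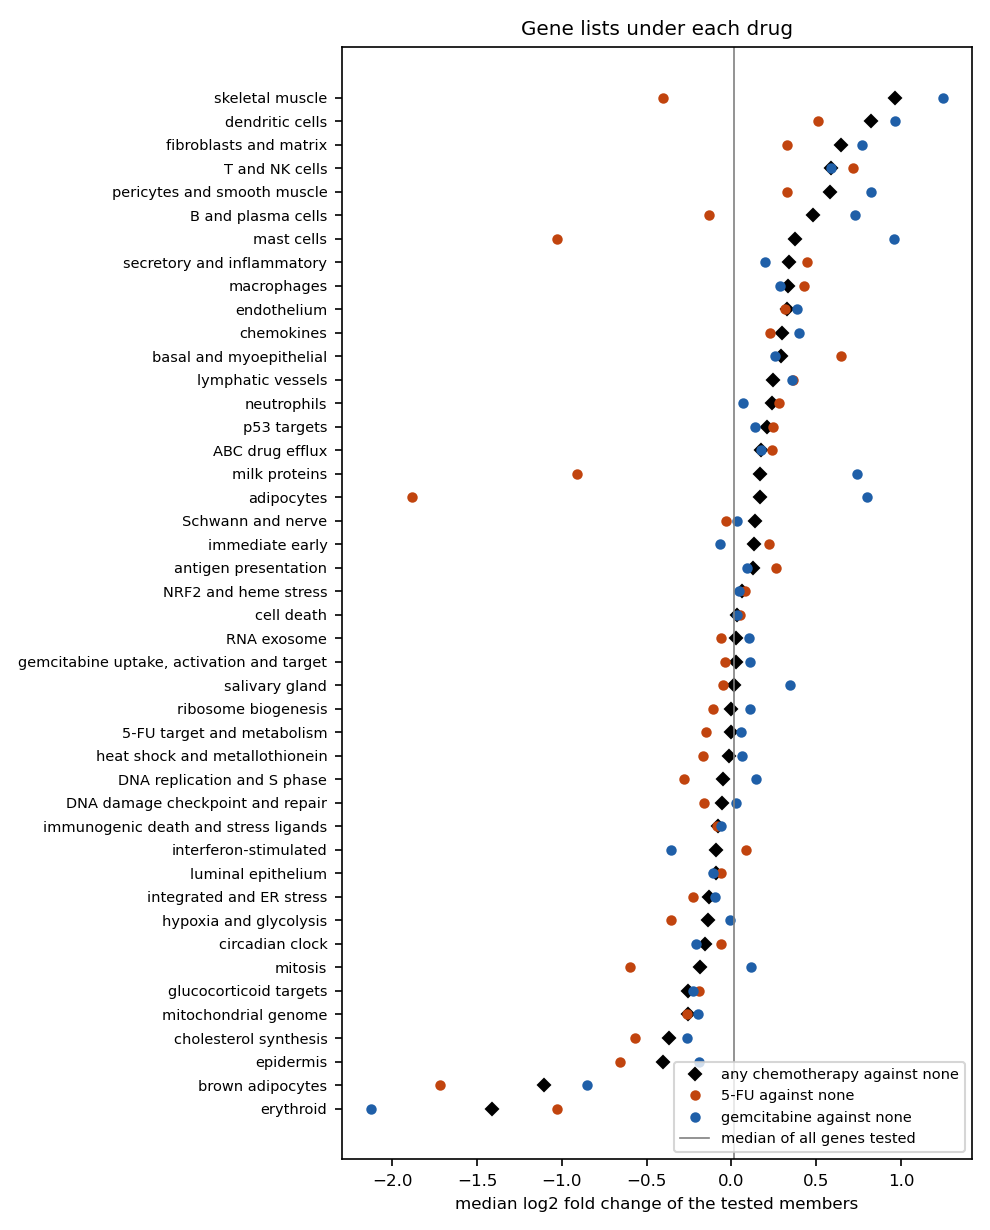
The median log2 fold change of the tested members of each of 44 gene lists is shown for any chemotherapy, 5-FU and gemcitabine, each against the 10 libraries without chemotherapy. The erythroid list lies lowest for any chemotherapy, and 5-FU and gemcitabine lie on opposite sides of 0 for adipocytes, mast cells, milk proteins and mitosis.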

How the data were processed

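RNA of 30 MMTV-PyMT tumors was sequenced from stranded libraries. The deposited values are expected counts per gene, made by the authors; the submitters' processing notes name FastQC 0.11.9, STAR 2.7.9a, Salmon 1.9.0, DESeq2 and the build mm10, and the annotation release is not given in the sources used here. Of the values 38.0% were not whole, and they were rounded. Of 21841 genes 13663 passed filterByExpr (minimum count 10); the 8178 left out held 0.0564% of counts. TMM scaling and quasi-likelihood tests were run in edgeR 4.0.16 (R 4.3.3) on chemotherapy plus KCL-HO-1i, on 3 drug levels plus KCL-HO-1i, and on chemotherapy by KCL-HO-1i, with Benjamini-Hochberg adjustment over all genes at 0.05. DESeq2 1.42.0 and limma-voom 3.58.1 were alternatives, with other filters, scalings, the PY code, a replicate block and single libraries left out. Log2 CPM used a prior count of 2. Scripts were tested on simulated data. No pair of replicates agreed within sampling noise (lowest chi-square per degree of freedom 19.6 over 60 pairs).

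Named were the 14 genes in each direction with the smallest p and the same sign in 4 pairs of groups, 3 in each direction between drugs, up to 4 per list, and 17 drug, p53 and immune genes. A few genes that these rules give are not reported here. Other named genes, such as the remaining sterol genes and globins and further list members, were chosen after their values were seen. The comparison, its members and lists were chosen with earlier results of these data known. Gene positions came from GENCODE (GRCm38) and promoters from RefSeq (GRCm38.p6). Intervals on counts cover counting error only.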

Additional observations from a re-analysis of the deposited data

Results flagged for a closer look

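In groups of 5, a sample was singled out when its gap to the nearest other was large against the whole range of the group. Of 150 groups examined 7 met this, and chance gives about 1 in 20. Bicdl1 was at 11.7 CPM in KCL-HO-1i/5-FU replicate 3. Abat was at 0.879 CPM in vehicle replicate 3 and at 3.28 CPM in KCL-HO-1i replicate 4. Cd8a was at 3.17 CPM in KCL-HO-1i/gemcitabine replicate 4. The mean log2 CPM of the erythroid genes was 5.66 in gemcitabine replicate 5, against −1.13 to 0.19 in the other gemcitabine tumors. The mean log2 CPM of the mitosis genes was 3.61 in 5-FU replicate 5, against 5.24 to 5.47 in the others. The mitochondrial share was 9.69% in KCL-HO-1i replicate 4. What set these libraries apart was not tested.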

How the results depend on the processing

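Of 75 genes followed, 67 kept their sign for any chemotherapy in every alternative that gave a value, which was 43 or 44 for each. Among the 75 were the 28 chosen by p and the same sign in the 4 pairs, and all 28 kept it. That choice favors a kept sign, and the share over all genes was not computed. Genes at an adjusted p under 0.05, 0 in every comparison by edgeR, numbered under DESeq2 1 for any chemotherapy, 11 for 5-FU, 20 between the drugs, 6 without and 4 with KCL-HO-1i and 6 for the interaction, and 22 between the drugs under limma-voom. With the PY code as a factor it was 1 (Mapre2), 3 for gemcitabine and 3 between the drugs, and without code 76 it was 8 for 5-FU. With an adipocyte score it was 1 for 5-FU and 1 between the drugs. With an erythroid score, an alternative chosen after seeing the data, it was 834 for gemcitabine and 353 between the drugs. At the limits of the study it was 356, 651, 204, 459, 143, 467 and 226. The cause was not tested.

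As single libraries were left out, the counts ranged from 0 to 0 for any chemotherapy, 5-FU, without KCL-HO-1i and the interaction, from 0 to 3 for gemcitabine and between the drugs, and from 0 to 9 with KCL-HO-1i. List medians ranged from −0.43 to −0.28 for cholesterol synthesis, −1.90 to −1.26 for erythroid, 0.17 to 0.24 for p53, −0.28 to −0.12 for mitosis, −0.10 to −0.01 for S phase, 0.48 to 0.73 for T and NK cells, 0.18 to 0.45 for chemokines, −0.27 to 0.16 for interferon, −0.04 to 0.01 for the 5-FU and −0.00 to 0.04 for the gemcitabine list, 0.35 to 0.72 for pericytes and −1.38 to 0.48 for brown adipocytes. The difference in total counts ranged from −325000 to 51670, and that in mitochondrial share from −0.8135 to 0.2179 percentage points.

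Log2 fold changes of other sign were Tyms −0.14 (limma-voom), −0.0094 (replicate block), −0.0857 (without code 76), −0.0203 (6 group means), −0.0064, −0.27 and −0.13 (adipocyte, erythroid and luminal scores), Mdm2 −0.0048 and Lyve1 0.75 (erythroid score), Dpyd −0.34, Hmox1 −0.0799 and Lyve1 0.16 (luminal score), Mrc1 −0.014 (PY code) and Cidea 0.27 (limma-voom). With single libraries left out the sign also changed for Tyms (−0.0574 to 0.0592), Cda (−0.23 to 0.0063), Dpyd (−0.12 to 0.5305), Hmox1 (−0.0939 to 0.3982), Mrc1 (−0.0235 to 0.522) and Cidea (−2.9585 to 0.4391, the highest without KCL-HO-1i replicate 4).

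The replicate numbers did not pair the samples (mean r 0.00284 over 75 same-numbered pairs), and with the replicate block 0 genes passed in each of the 7 comparisons, while any chemotherapy had 818 by unadjusted p.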

Other observations

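With the PY code as a factor, Mapre2, a microtubule end-binding protein, had a log2 fold change of 0.79 for any chemotherapy (adjusted p = 0.0170 in edgeR) and 0.85 for gemcitabine (adjusted p = 0.0225 in edgeR). The 5 codes with both arms held only 7 treated and 6 untreated libraries. In the main edgeR fit of any chemotherapy, the smallest adjusted p of any gene was 0.679. Mapre2 was named after its values were seen.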
